A study of Rattus norvegicus with 16 samples.

Results

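GABA and glutamate receptors are built from subunits encoded by separate genes, and 41 such genes were followed in the dorsal root ganglia (DRGs) of rats with bone cancer. They were taken by gene symbol from the 21021 genes listed for each sample, and were chosen with earlier results of these data known. Of the 41, 17 encode GABA receptor subunits and 24 encode glutamate receptor subunits. A mean of at least 1 FPKM (sequenced fragments of a gene, scaled for the length of its transcript and for all fragments mapped in the sample) was reached in at least 1 group by 24 of them, and these 24 are described. The other 17 stayed below 1 FPKM in all groups, with a highest single value of 0.92 FPKM, and are only counted. They are Gabra4, Gabra6, Gabrb1, Gabrg3, Gabrd, Gabre, Gabrp, Gabrq, Gabrr1, Gabrr2, Grin2a, Grin2b, Grin2c, Grin2d, Grm2, Grm5 and Grm6.

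RNA was sequenced from DRGs at 1, 7 and 14 days after tumor cell implantation (TCI) and from sham rats, with 4 samples in each of the 4 groups. All animals were adult female Sprague-Dawley rats, and no genetic change is described for any group. For TCI, Walker-256 mammary carcinoma cells grown in the ascites of other rats were placed into the left tibia. For sham, the labels give a PBS injection and the study's methods give boiled tumor cells, and the labels place all 4 sham samples at day 14. On TCI days 1 and 7 less time had passed since surgery than in sham, and this and the implanted cells cannot be told apart. The L3–L5 ganglia on the injected side of 1 animal were pooled as 1 sample, so a value is an average over the neurons, glia, vessels and immune cells of several ganglia, of which only some neurons reach the tibia. In such bulk samples fewer cells of a type and less RNA per cell cannot be told apart. Replicate 2 of TCI day 1 and replicate 3 of TCI day 7 were left out by the study for their low correlation with other samples. Values here are over the other 14 samples unless all 16 are named.

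GABA-A receptors are chloride channels assembled from alpha, beta, gamma and other subunits, and in adult sensory neurons, which keep a high internal chloride through the importer Slc12a2, their opening depolarizes the cell and dampens transmitter release from its central endings. GABA-B receptors are G protein-coupled dimers of Gabbr1, which binds GABA, and Gabbr2, which couples to the G protein. Glutamate acts on cation channels of the AMPA, kainate and NMDA classes and on metabotropic receptors (mGlu), and sensory neurons both release glutamate and carry receptors for it, with kainate receptors that contain Grik1 a long-known feature of small-diameter sensory neurons.

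The tissue label was checked against marker genes. The summed level of 20 pan-neuronal genes lay between 20671 and 21638 FPKM in sham and that of 13 sensory neuron genes, such as Avil and Scn10a, between 1593 and 1848 FPKM. Markers of the spinal cord were low, with Slc32a1, the vesicular GABA transporter, at 0 FPKM in all 4 sham samples and at most 0.07 FPKM in the other samples used, and Olig2, an oligodendrocyte factor, at most 0.14 FPKM. The whole list of 12 central nervous genes summed to 8.02 to 12.6 FPKM in sham and to 19.8 to 20.7 FPKM on day 7, most of it from Gfap, which activated satellite glia also express. The 14 skeletal muscle genes summed to 659 FPKM in sham replicate 4 against 11.4 to 13.1 FPKM in the other sham samples, and to 27564 FPKM in the left-out replicate 3 of day 7. The pan-neuronal genes of that replicate summed to 12527 FPKM, below all other samples, so a low level of a subunit in it, or a difference that grows with all 16 samples, is not read as further evidence of a fall.

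In sham ganglia the levels of the subunits ran from a mean of 0.97 to one of 153 FPKM. Gabbr1 was the most abundant at 153 ± 3.77 FPKM (SD, n = 4), and its samples lay above those of every other subunit. Gabbr2 at 46.5 ± 1.36 FPKM and Gabra2, an alpha subunit of GABA-A receptors, at 41.9 ± 2.79 FPKM followed, with overlapping samples. Grin1, the subunit shared by NMDA receptors, at 34.5 ± 1.07, Grik1 at 32.9 ± 3.20 and Gabrg1, a gamma subunit of GABA-A receptors, at 28.0 ± 3.04 FPKM formed the next overlapping run. Below a gap came the kainate subunit Grik5 at 12.0 ± 0.785 FPKM, whose samples overlapped with neither neighbour in the order. From Grik4 at 8.06 ± 0.62 FPKM down to the NMDA subunit Grin3b at 2.59 ± 0.0888 FPKM, 12 subunits lay in an order in which each neighbour overlapped with the next. The 5 subunits from Gabrb2 at 1.95 ± 0.25 FPKM to Grm3 at 0.97 ± 0.114 FPKM came last.

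**Figure D1:**
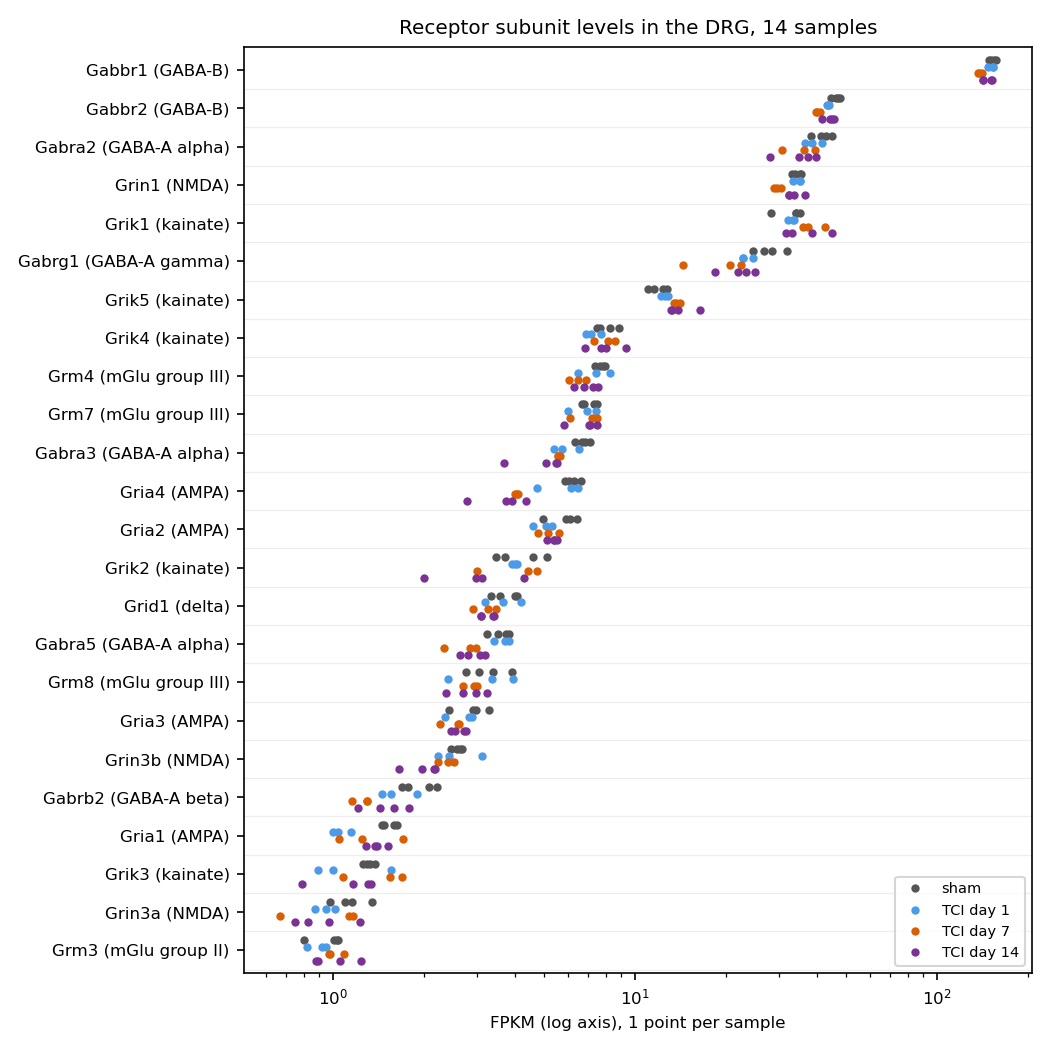
FPKM of the 24 described subunits in each of the 14 samples on a log axis, 1 point per sample, ordered from top to bottom by the mean in sham, with the receptor class in brackets. Gabbr1 stands above all other subunits in every group, and for Gria4 the points of days 7 and 14 lie to the left of those of sham.

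The first question was which subunits differed from sham on each day after TCI. A difference was called at an adjusted p of at most 0.05 in limma on log2(FPKM + 1), adjusted over all 14023 genes tested, and log2 fold changes are on that scale, which understates the change of genes near 1 FPKM. On day 7, 7 of the 24 subunits were lower and 0 were higher, where 3.45% of all genes tested were lower and 14.5% were higher. By unadjusted p under 0.05, 11 of the 24 differed in either direction. Apart from day 1, such counts here and below have no share of all genes beside them. They are not read as results about the subunits. The 7 were Gabra5, Gabrb2 and Gabrg1 of the GABA-A receptor, Gabbr1 and Gabbr2 of the GABA-B receptor, the AMPA subunit Gria4 and the NMDA subunit Grin1. On day 14, 2 of the 24 were lower, Gabra3 and Gria4, against 3.21% of all genes, and 1 was higher, Grik5, against 11.9% of all genes. The median log2 fold change of the 24 was -0.14 on day 7 and -0.12 on day 14, beside 0.04 and 0.03 over all genes tested. On day 1, limma called 0 of the 24 and 0 of all genes (0%), with 3 of the 24 and 734 of all genes at an unadjusted p under 0.05. All 3 comparisons use the same sham samples. Without sham replicate 2 the count of lower subunits on day 7 was 4 (2.24% of all genes), and without day 14 replicate 1 that on day 14 was 4 (3.71%). Without day 14 replicate 3 there was 1 higher subunit on day 7 (17.1% of all genes). At the stricter cut-offs used by the study (an absolute log2 fold change of 1 or more with an adjusted p no higher than 0.001) 0 of the 24 were called on any day, where 1.83% of all genes were on day 7 and 0.642% on day 14.

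Marker genes of several cell types moved on the same days, where 14.5% of all genes tested were higher and 3.45% lower on day 7, and 11.9% and 3.21% on day 14. On day 7, 15 of 15 macrophage genes were higher, with a summed level of 1021 to 1364 FPKM against 78.3 to 144 FPKM in sham, as were 10 of 11 T cell genes tested. Of the 20 pan-neuronal genes 5 were lower, namely Rbfox3, Snap25, Nefl, Nefm and Nefh, with a median log2 fold change over the list of -0.14, and their summed level was 17494 to 18613 FPKM. Of the 13 sensory neuron genes 0 were called by limma, 4 had an unadjusted p under 0.05, and the median was -0.03. Of 12 fibroblast and vessel genes 5 were higher, and of 10 myelinating Schwann cell genes limma called 0, with 3 at an unadjusted p under 0.05. Of 8 satellite glia genes 1 was lower on day 7, the potassium channel gene Kcnj10, and the list summed to 419 to 459 FPKM against 466 to 481 FPKM in sham, without overlap. On day 14, 13 macrophage genes, summing to 577 to 1973 FPKM, and 10 T cell genes were higher, 5 pan-neuronal genes were lower with a median of -0.10, and 4 satellite glia genes were lower, with a sum of 332 to 455 FPKM. Also on day 14, 1 sensory neuron gene, Ntrk2, was lower and 1 fibroblast and vessel gene, Dcn, was higher, and 0 Schwann cell genes were called, with 1 at an unadjusted p under 0.05. On day 1 limma called no gene of these lists, and 6 of the 10 Schwann cell genes had an unadjusted p under 0.05, with a sum of 12653 to 14073 FPKM against 8477 to 11368 FPKM in sham. With each sample centred on the pan-neuronal list, which moved the median of all genes by 0.16 on day 7 and by 0.11 on day 14, 0 of the 24 subunits were lower and 2, Grik1 and Grik5, were higher on day 7, where 0.285% of all genes were lower and 39.4% were higher. On day 14 in that setting 1, Gria4, was lower and the same 2 were higher, against 0.406% and 27.6% of all genes. Quantile normalization, which moved the median of all genes by -0.11 on day 7, gave 14 lower and 0 higher on day 7, where 16.5% of all genes were lower and 9.56% higher, and 9 lower and 0 higher on day 14, against 11% and 7.85%. The calls below are therefore relative to all mapped fragments, and the part of the cell mixture in them was not tested.

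**Figure D2:**
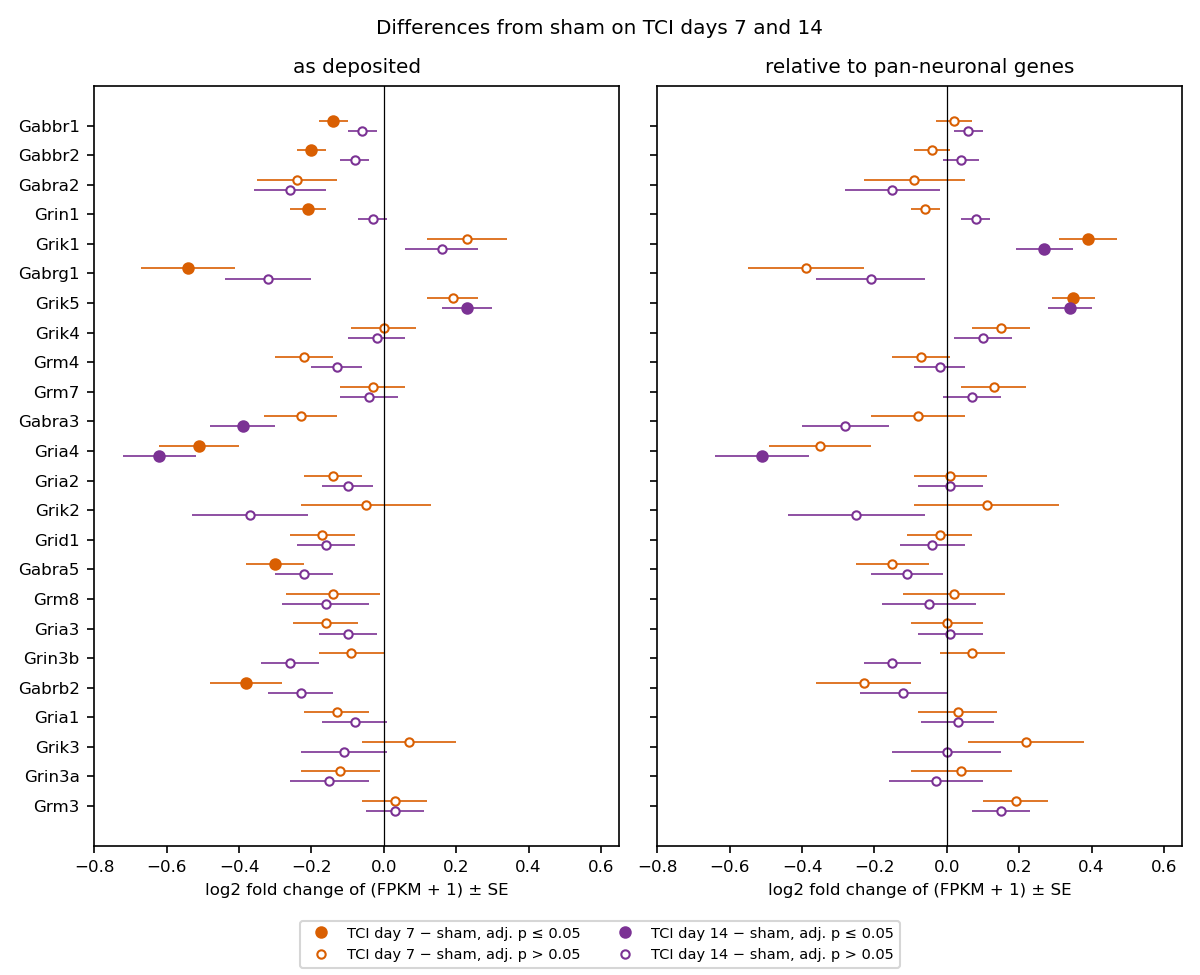
Log2 fold change of FPKM + 1 against sham, ± SE, for the 24 subunits on TCI days 7 and 14, with filled points for an adjusted p of at most 0.05 in limma. In the left panel, from the deposited values, most points lie below 0. In the right panel, with each sample centred on the pan-neuronal genes, the values of Gabbr1, Gabbr2 and Grin1 move to near 0, Grik1 and Grik5 are above 0 on both days, and Gria4 on day 14 is the lower call that is left.

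To show the sequence before the genes described below, the 250 bases before the RefSeq start of 4 called subunits are given, read 5′ to 3′ on the strand of the gene in assembly GRCr8. They are the subunit with the largest fall on day 14 (Gria4), the subunit that rose (Grik5), the most abundant one (Gabbr1) and the GABA-A subunit with the largest percentage fall on day 7 (Gabrb2). Capitals mark a GC box (GGGCGG on either strand).
Gria4: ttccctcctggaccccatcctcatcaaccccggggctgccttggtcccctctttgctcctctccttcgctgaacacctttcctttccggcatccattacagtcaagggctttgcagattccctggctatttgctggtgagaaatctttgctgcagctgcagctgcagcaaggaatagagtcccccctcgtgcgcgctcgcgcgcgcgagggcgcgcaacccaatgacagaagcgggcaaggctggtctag
Grik5: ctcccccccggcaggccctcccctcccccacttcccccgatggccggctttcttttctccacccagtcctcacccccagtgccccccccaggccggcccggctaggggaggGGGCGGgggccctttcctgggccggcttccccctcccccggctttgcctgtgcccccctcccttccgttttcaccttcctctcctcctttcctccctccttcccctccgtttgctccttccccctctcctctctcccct
Gabbr1: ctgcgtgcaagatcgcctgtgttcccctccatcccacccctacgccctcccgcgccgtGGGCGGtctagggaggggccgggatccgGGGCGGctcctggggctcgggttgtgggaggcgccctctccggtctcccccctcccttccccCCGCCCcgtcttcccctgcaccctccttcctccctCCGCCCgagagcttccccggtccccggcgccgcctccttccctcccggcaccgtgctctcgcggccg
Gabrb2: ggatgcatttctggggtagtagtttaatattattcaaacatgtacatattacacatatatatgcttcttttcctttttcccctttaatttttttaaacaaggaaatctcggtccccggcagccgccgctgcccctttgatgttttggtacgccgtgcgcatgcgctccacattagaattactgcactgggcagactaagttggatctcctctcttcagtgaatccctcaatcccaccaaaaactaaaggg
Gria4 lies at chr8:10319882-10320131 on the minus strand and holds no GC box, no cyclic AMP response element (CRE, searched as TGACGTCA) and no TATA box (searched as TATAAA), with a GC content of 59.6%. Grik5 at chr1:89794910-89795159, minus strand, holds 1 GC box, which begins 139 bases before the start. Gabbr1 at chr20:1499237-1499486, minus strand, holds 4 GC boxes, and its GC content is 75.6%. Gabrb2 at chr10:27439543-27439792, plus strand, holds no match, and its GC content is 43.2%. A promoter sequence was at hand for 16 of the 24 subunits. A GC box was found in 6 of the 16 (Gabbr1, Gabbr2, Gabra5, Grik3, Grik5 and Grm7) and in 30.5% of all 33469 promoters, searched on both strands. A CRE was found in 0 of the 16 and in 1.59% of all, and TATA in 1 (Gabra3) and in 12.9% of all. GC boxes stood before subunits called lower (Gabbr1), called higher (Grik5) and called in neither direction (Grm7). No value in these data reports on the promoters themselves.

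Among the GABA-A subunits, 3 of the 5 tested were lower on day 7 and 1 was lower on day 14, where 3.45% and 3.21% of all genes tested were lower. Gabrg1, a gamma subunit, which in GABA-A receptors sits beside the alpha subunit and shapes the response to benzodiazepines, measured 28.56, 31.89, 26.84 and 24.68 FPKM in sham and 22.41, 20.61 and 14.44 FPKM on day 7. All day 7 samples lay below all sham samples, with replicate 4 lowest. It fell by 31.6% on the FPKM scale, at a log2 fold change of -0.54 ± 0.13 (SE; adjusted p = 0.0136, limma). Without that replicate 4 of day 7 the log2 fold change was -0.36 (adjusted p = 0.0532). On day 14 Gabrg1 stood at 22.2 ± 2.85 FPKM (SD, n = 4) and overlapped with sham (log2 fold change -0.32, adjusted p = 0.0998).

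Gabrb2, a beta subunit, which forms part of the GABA binding site, measured 1.77, 2.22, 1.70 and 2.09 FPKM in sham and 1.30, 1.30 and 1.16 FPKM on day 7. The groups did not overlap, and Gabrb2 fell by 35.6%, with a log2 fold change of -0.38 ± 0.10 (adjusted p = 0.0169, limma). On day 14 its 4 samples were 1.59, 1.43, 1.21 and 1.79 FPKM, of which 1 lay within the range of sham (log2 fold change -0.23, adjusted p = 0.104). Without sham replicate 2 the adjusted p on day 7 was 0.0523, and without day 7 replicate 4 it was 0.0609.

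Gabra5, an alpha subunit typical of receptors outside the synapse, measured 3.74, 3.84, 3.53 and 3.24 FPKM in sham, 2.33, 2.99 and 2.84 FPKM on day 7 and 3.20, 3.07, 2.64 and 2.80 FPKM on day 14. Both late groups lay below all sham samples, on day 14 by a narrow margin. The log2 fold change was -0.30 ± 0.08 on day 7 (adjusted p = 0.0199) and -0.22 ± 0.08 on day 14 (adjusted p = 0.0625), so that limma called day 7 alone. That call was lost without day 7 replicate 1 (adjusted p = 0.101) and without sham replicate 1 or 2 (0.0552 and 0.058).

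Gabra3, another alpha subunit, measured 6.85, 6.67, 6.34 and 7.13 FPKM in sham, 5.55, 5.66 and 5.55 FPKM on day 7 and 5.52, 5.07, 3.68 and 5.49 FPKM on day 14. The samples of both days lay below those of sham, and those of day 14 were the more spread. On day 14 Gabra3 fell by 26.8%, at a log2 fold change of -0.39 ± 0.09 (adjusted p = 0.0143, limma), while the value of -0.23 ± 0.10 on day 7 was not called (adjusted p = 0.138). Between the days the log2 difference was -0.16 ± 0.10 (adjusted p = 0.637). Leaving out any 1 sample kept the day 14 call, with an adjusted p of at most 0.0408. Fitting day 14 and sham alone gave 0.057.

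Gabra2, the most abundant alpha subunit, was at 41.9 ± 2.79 FPKM in sham, 35.5 ± 4.45 on day 7 and 35.0 ± 5.17 on day 14, and its groups overlapped. Neither difference was called (log2 fold changes -0.24 and -0.26, adjusted p = 0.155 and 0.103, limma). The 15 GABA-A members summed to 84.1 ± 6.05 FPKM in sham (SD, n = 4), 75.6 ± 2.55 on day 1 (n = 3), 65.8 ± 8.45 on day 7 (n = 3) and 68.5 ± 9.12 on day 14 (n = 4). Within the alpha subunits Gabra2 kept a like share of the summed level throughout, from a mean of 79.0% in sham to 80.2% on day 14.

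Both GABA-B subunits were lower on day 7, by a small amount with little spread, where 3.45% of all genes tested were lower. Gabbr1 measured 151.45, 154.60, 157.19 and 148.52 FPKM in sham and 138.17, 136.47 and 141.47 FPKM on day 7, and fell by 9.31% (log2 fold change -0.14 ± 0.04, adjusted p = 0.0249, limma). Gabbr2 measured 47.88, 47.17, 44.71 and 46.43 FPKM in sham and 39.91, 41.14 and 40.15 FPKM on day 7, and fell by 13.2% (log2 fold change -0.20 ± 0.04, adjusted p = 0.00373). Neither subunit's day 7 samples overlapped with sham. On day 14 Gabbr1 was at 147 ± 5.63 and Gabbr2 at 44.1 ± 1.71 FPKM, both overlapping with sham (adjusted p = 0.331 and 0.181).

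The ratio of the GABA-B partners hardly moved, with Gabbr1 holding 76.7% (sham), 77.7% (day 1), 77.4% (day 7) and 76.9% (day 14) of their summed FPKM. The Gabbr2 call was kept in all 14 fits that left out 1 sample, with an adjusted p of at most 0.0201. The Gabbr1 call was lost in 5 of the 14, without day 7 replicate 1 (adjusted p = 0.0779) or 2 (0.0912) and without sham replicate 1 (0.0502), 2 (0.0634) or 3 (0.0715). With all 16 samples it was also lost, at a log2 fold change of -0.27 ± 0.10 (adjusted p = 0.0583), while Gabbr2 was kept (-0.35, adjusted p = 0.031). Centred on the pan-neuronal list, the log2 fold changes on day 7 were 0.02 for Gabbr1 and -0.04 for Gabbr2 (adjusted p = 0.809 and 0.526), which turns the sign of Gabbr1.

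Of the 4 AMPA subunits, Gria4 was lower on days 7 and 14 and the other 3 were not called on any day, where 3.45% and 3.21% of all genes tested were lower on days 7 and 14. AMPA receptors carry fast glutamate transmission, and Gria2 is the subunit that keeps calcium out of their pore. Gria4 measured 6.04, 6.63, 6.30 and 5.86 FPKM in sham, 4.11, 4.01 and 4.08 FPKM on day 7 and 3.75, 4.37, 2.79 and 3.93 FPKM on day 14. Every sample of both days lay below every sham sample. Gria4 fell by 34.5% on day 7 (log2 fold change -0.51 ± 0.11, adjusted p = 0.00712, limma) and by 40.2% on day 14 (-0.62 ± 0.10, adjusted p = 0.00221).

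On day 1, Gria4 measured 4.74, 6.15 and 6.47 FPKM, with 1 sample below the range of sham and 2 within it. It was the one subunit called lower on both days, and no fit that left out 1 sample lost either call, the adjusted p being at most 0.0291 on day 7 and 0.0101 on day 14. With all 16 samples the log2 fold changes were -0.53 and -0.62 (adjusted p = 0.00192 and 0.00157), but the value of 3.73 FPKM in replicate 3 of day 7, with its low pan-neuronal sum, is no further support for the day 7 fall. Centred on the pan-neuronal list they were -0.35 (adjusted p = 0.0639) and -0.51 (0.0126).

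Gria2 was at 5.85 ± 0.623 FPKM in sham, 5.19 ± 0.426 on day 7 and 5.36 ± 0.169 on day 14, and Gria3 at 2.90 ± 0.351, 2.49 ± 0.197 and 2.62 ± 0.147 FPKM, in overlapping ranges. Gria1 measured 1.45, 1.48, 1.63 and 1.59 FPKM in sham and 1.00, 1.15 and 1.04 FPKM on day 1. Its day 1 samples lay below all sham samples, but the log2 fold change of -0.30 ± 0.09 was not called (adjusted p = 0.793, limma). On day 1, 3 of the 24 subunits had all samples below sham (Gabrg1, Gabbr2 and Gria1) and 0 had all above, where 5.73% and 6.17% of all genes did.

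**Figure D3:**
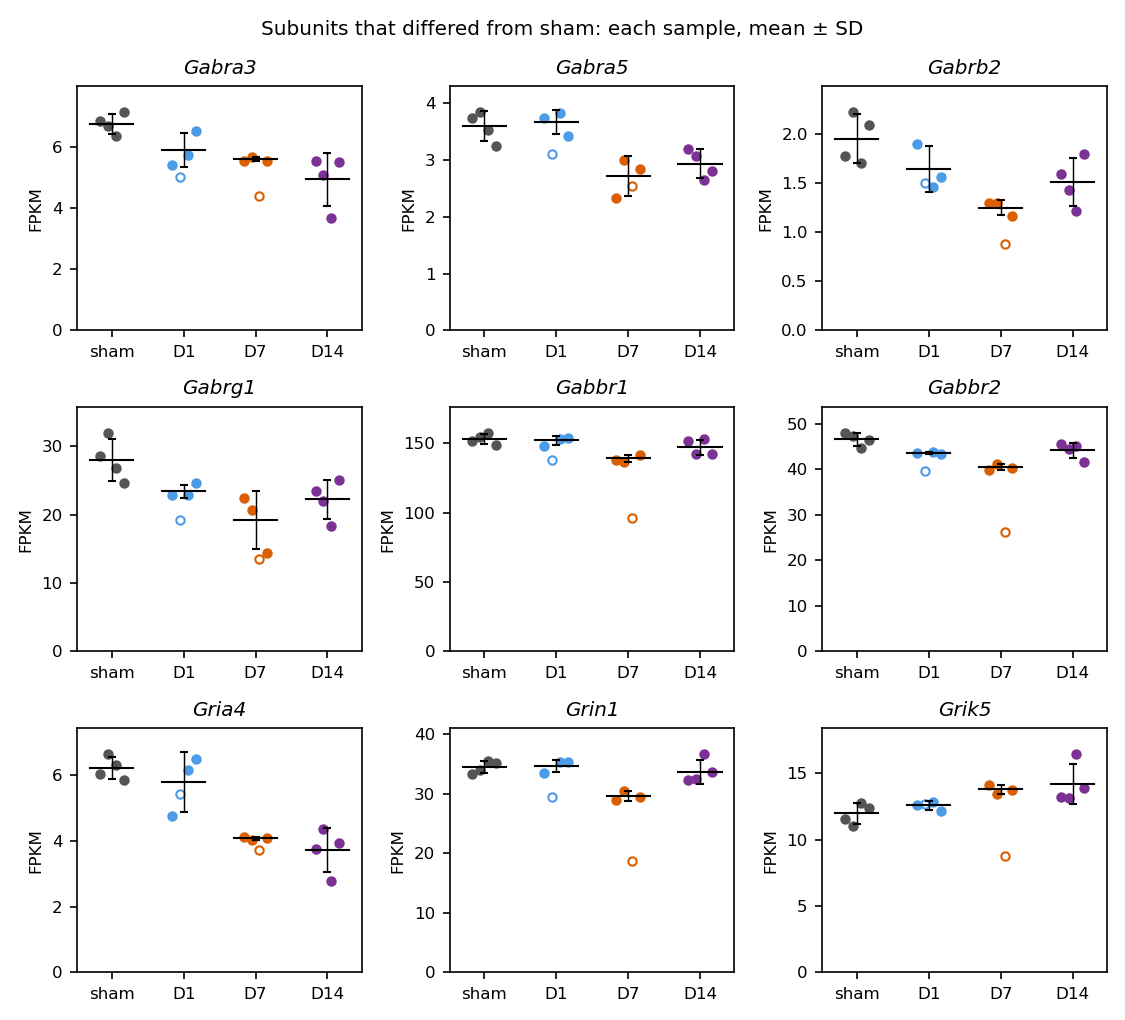
FPKM per sample of the 9 subunits called against sham on day 7 or 14, with the mean (line) and SD (bar) over the filled points and open points for the 2 samples left out by the study; each axis starts at 0. Gria4 is below sham in all samples of days 7 and 14, Grik5 is above it, and the open point of day 7 is far below its group for Gabbr1, Gabbr2, Grin1 and Grik5.

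The make-up of the AMPA subunits, as shares of their summed FPKM, is a description with no test. Gria4 made up 37.7 ± 1.5% in sham (SD, n = 4), 39.7 ± 2.2% on day 1 (n = 3), 31.2 ± 2.06% on day 7 (n = 3) and 28.2 ± 4.28% on day 14 (n = 4). The samples ran from 35.8% to 39.4% in sham, from 29.7% to 33.5% on day 7 and from 22.6% to 33.0% on day 14, and neither late group overlapped with sham. The mean share of Gria2 was 35.4% (sham), 34.5% (day 1), 39.7% (day 7) and 41.0% (day 14). On the late days Gria2 and not Gria4 had the largest mean share. In sham the shares of Gria2, 33.5% to 36.7%, overlapped with those of Gria4, and in sham replicate 1 Gria2 was the larger (36.2% against 35.8%). In the left-out replicate 3 of day 7 Gria4 made up 37.6%, within the range of sham. These shares are the same under any scaling of a whole sample.

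**Figure D4:**
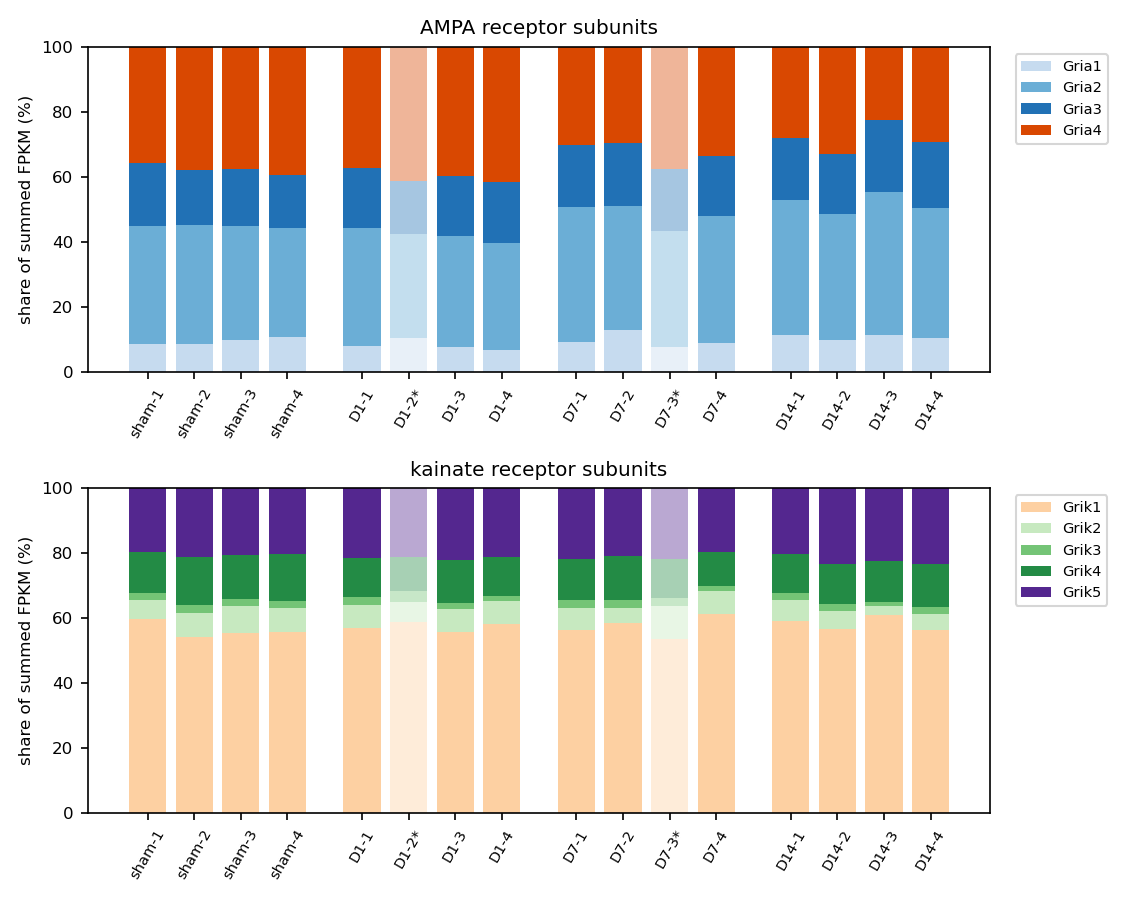
Share of the summed FPKM held by each AMPA subunit (top) and each kainate subunit (bottom) in every sample, with pale bars and an asterisk for the 2 samples left out by the study. In the AMPA panel the share of Gria4 at the top of the bars is 35.8% to 39.4% in sham and 22.6% to 33.0% on day 14, while in the kainate panel Grik1 holds 54.2% to 59.7% in sham and 56.1% to 61.0% on day 14.

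Of the 5 kainate subunits, limma called 0 lower on day 7 or 14 and 1 higher on day 14. Over all genes tested, 3.45% and 3.21% were lower on these days, and 11.9% were higher on day 14. By unadjusted p under 0.05, 1 of the 5 differed from sham on day 7 and 2 did on day 14. Grik5, a subunit that raises the glutamate affinity of kainate receptors and needs a partner such as Grik1, measured 11.59, 11.04, 12.77 and 12.42 FPKM in sham, 14.14, 13.46 and 13.72 FPKM on day 7 and 13.25, 13.18, 16.45 and 13.87 FPKM on day 14. All samples of both days lay above all sham samples. It rose by 18.7% on day 14 (log2 fold change 0.23 ± 0.07, adjusted p = 0.0357, limma), while the 15.2% on day 7 was not called (0.19 ± 0.07, adjusted p = 0.0842).

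The Grik5 call depended on single samples and on the scaling. It was lost without day 14 replicate 4 (adjusted p = 0.0507) and without sham replicate 1 (0.0935), 2 (0.108) or 4 (0.0511), with all 16 samples (0.262), in a fit of day 14 and sham alone (0.115) and after quantile normalization (0.126). In the left-out replicate 3 of day 7 Grik5 measured 8.74 FPKM, below all sham samples. Centred on the pan-neuronal list Grik5 was called on both days, at log2 fold changes of 0.35 ± 0.06 (adjusted p = 0.00135) and 0.34 ± 0.06 (adjusted p = 0.00153).

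Grik1 measured 35.21, 28.14, 34.12 and 34.05 FPKM in sham, 36.17, 37.35 and 42.64 FPKM on day 7 and 38.73, 31.66, 44.80 and 33.18 FPKM on day 14. Its day 7 samples lay above all sham samples, but neither day was called (log2 fold changes 0.23 ± 0.11 and 0.16 ± 0.10, adjusted p = 0.165 and 0.307, limma). Centred on the pan-neuronal list both were, at 0.39 ± 0.08 (adjusted p = 0.00362) and 0.27 ± 0.08 (0.0193). Grik4, the other high-affinity partner subunit, was at 8.06 ± 0.62 FPKM in sham, 8.04 ± 0.656 on day 7 and 7.99 ± 1.06 on day 14.

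Grik2 ran from 3.47 to 5.10 FPKM in sham and from 2.0 to 4.30 FPKM on day 14 (log2 fold change -0.37 ± 0.16, adjusted p = 0.146), and its share of the kainate sum had a mean of 7.21% in sham and 4.97% on day 14, in overlapping ranges. Grik3 stayed between 0.79 and 1.69 FPKM in the samples used. The kainate subunits summed to 58.4 ± 4.49 FPKM in sham (SD, n = 4), 58.0 ± 0.871 on day 1 (n = 3), 66.0 ± 3.02 on day 7 (n = 3) and 63.5 ± 7.72 on day 14 (n = 4).

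NMDA receptors need Grin1 together with a subunit of another kind, and of the 7 members 3 reached 1 FPKM, Grin1, Grin3a and Grin3b. Grin1 measured 33.24, 33.93, 35.50 and 35.21 FPKM in sham, 28.94, 30.49 and 29.51 FPKM on day 7 and 32.34, 32.41, 36.64 and 33.59 FPKM on day 14. Its day 7 samples were all below sham and its day 14 samples overlapped with sham. It fell by 14.0% on day 7 (log2 fold change -0.21 ± 0.05, adjusted p = 0.00856, limma), a call kept in all 14 fits that left out 1 sample, and on day 14 the log2 fold change was -0.03 (adjusted p = 0.683). Centred on the pan-neuronal list the day 7 value was -0.06 (adjusted p = 0.334).

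Grin3a and Grin3b encode glycine-binding subunits that lower the calcium flux of NMDA receptors. Grin3b measured 2.57, 2.47, 2.64 and 2.67 FPKM in sham and 1.98, 1.66, 2.18 and 2.17 FPKM on day 14. The groups did not overlap, but the log2 fold change of -0.26 ± 0.08 narrowly missed the threshold (adjusted p = 0.0523, limma). Grin3a stayed between 0.67 and 1.35 FPKM in the samples used and was not called on any day. Grin1 made up between 85.6% and 91.0% of the summed NMDA members in the 14 samples.

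None of the 4 metabotropic glutamate receptors tested was called by limma on day 7 or 14, with 1 at an unadjusted p under 0.05 on day 7 and 0 on day 14. Over all genes tested, 3.45% were called lower and 14.5% higher on day 7, and 3.21% and 11.9% on day 14. Grm4, Grm7 and Grm8, receptors that lower cAMP and restrain transmitter release, were the main ones, and Grm4 and Grm7 made up 39.5% and 36.2% of the summed mGlu level in sham. Grm4 measured 7.97, 7.65, 7.38 and 7.87 FPKM in sham and 6.07, 6.87 and 6.48 FPKM on day 7, with no overlap, at a log2 fold change of -0.22 ± 0.08 (adjusted p = 0.0641). With all 16 samples it was called, at -0.30 ± 0.09 (adjusted p = 0.026), the left-out replicate 3 of day 7 being at 4.97 FPKM.

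Grm7 was at 7.07 ± 0.386 FPKM in sham and 6.94 ± 0.73 on day 7, Grm8 at 3.28 ± 0.503 and 2.88 ± 0.159, and Grm3 at 0.97 ± 0.114 and 1.01 ± 0.0666. Grid1, a delta-type member of the glutamate receptor family that works as a synaptic adhesion partner, was at 3.75 ± 0.348 FPKM in sham, 3.21 ± 0.279 on day 7 and 3.26 ± 0.182 on day 14 (adjusted p = 0.194 and 0.211). On day 7, 9 of the 24 subunits had all samples below sham and 2 had all above, where 10.1% and 23.8% of all genes did, and on day 14 these were 4 and 1, against 5.38% and 13.8%.

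The TCI days were also compared with each other. From day 1 to day 7, 3 of the 24 subunits were lower and 0 higher, where 1.42% of all genes were lower and 9.02% higher, and 5 of the 24 had an unadjusted p under 0.05. They were Gabra5 (log2 fold change -0.33 ± 0.09, adjusted p = 0.0293), Gria4 (-0.41 ± 0.12, 0.0443) and Grin1 (-0.22 ± 0.05, 0.0155). Gabra5 measured 3.73, 3.82 and 3.42 FPKM on day 1, above all day 7 samples, and Grin1 measured 33.52, 35.33 and 35.25 FPKM on day 1, likewise above all day 7 samples. The count of lower subunits was 0 without day 1 replicate 3 or day 7 replicate 1 (0.471% and 0.667% of all genes) and 1 without day 1 replicate 4 (0.457%). The Gria4 call was lost in 11 of the 14 fits that left out 1 sample, at an adjusted p of up to 0.168. Of the 10 myelinating Schwann cell genes 8 were lower on day 7 than on day 1, with a sum of 6958 to 8659 FPKM on day 7, as were 3 of the 20 pan-neuronal genes, and all 15 macrophage genes, 10 of 11 T cell genes and 3 of 12 fibroblast and vessel genes were higher. Their part in the 3 calls was not tested. From day 1 to day 7, centring on the pan-neuronal list gave 0 lower and 2 higher subunits, where 0.25% and 20.3% of all genes were called so, and after quantile normalization 7 were lower and 0 higher, against 6.84% and 6.4%.

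From day 1 to day 14, 1 subunit, Gria4, was lower (log2 fold change -0.53 ± 0.11, adjusted p = 0.015, limma), where 1.06% of all genes were, and 0 were higher, where 5.9% of all genes were. Without day 1 replicate 3 or 4 this call was lost (adjusted p = 0.0726 and 0.0793). Between these days 4 Schwann cell, 2 satellite glia, 2 pan-neuronal and 1 sensory neuron genes were lower and 12 macrophage and 10 T cell genes higher. Centring gave 0 lower and 1 higher, against 0.257% and 10.1% of all genes, and quantile normalization 3 lower and 0 higher, against 3.01% and 3.85%. Between days 7 and 14 limma called 0 of the 24 subunits and 14 of all genes (0.0998%), and 2 of the 24 had an unadjusted p under 0.05. These were Grin1, with a log2 difference of 0.18 ± 0.05 (adjusted p = 0.22), and Gabbr2, with one of 0.12 ± 0.04 (adjusted p = 0.299), day 14 being the higher in both. That Gabra5, Gabrb2, Gabrg1, Gabbr1, Gabbr2 and Grin1 were called against sham on day 7 and not on day 14, and Gabra3 and Grik5 on day 14 and not on day 7, is therefore not shown to be a difference between the days.

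Genes that make, move or anchor around these receptors were followed as lists. Of 4 tested genes for GABA synthesis and uptake, 1 was higher on both days, the GABA transporter Slc6a13, where 14.5% of all genes tested were higher on day 7 and 11.9% on day 14. Slc6a13 was at 3.17 ± 0.619 FPKM in sham (SD, n = 4), 9.56 ± 0.516 on day 7 (n = 3) and 7.63 ± 0.762 on day 14 (n = 4). Its log2 fold change was 1.35 ± 0.14 on day 7 (adjusted p = 7.72e-05, limma) and 1.06 ± 0.13 on day 14 (0.000398). The 12 fibroblast and vessel genes summed to 449 to 623 FPKM in sham, 991 to 1255 on day 7 and 365 to 1001 on day 14, and their part in the level of Slc6a13 was not tested. Abat, which breaks GABA down, was the most abundant of the list at 19.6 ± 2.62 FPKM in sham and was not called. The GABA-making enzymes Gad1 and Gad2 were near 0, with sham means of 0.305 and 0.0875 FPKM, and were not tested.

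Of 7 tested genes for glutamate release and uptake, 1 was higher and 1 was lower on day 7 and 0 were called on day 14, with 0 at an unadjusted p under 0.05. Over all genes tested, 14.5% were higher and 3.45% lower on day 7, and 11.9% and 3.21% on day 14. Glul, the glutamine synthetase of glia, rose from 111 ± 6.36 to 151 ± 4.53 FPKM (log2 fold change 0.44 ± 0.11, adjusted p = 0.0148, limma). Slc17a7, the main vesicular glutamate transporter here, fell from 142 ± 4.55 to 125 ± 5.01 FPKM (-0.19 ± 0.06, 0.0346). Of 6 tested genes on the chloride transporter list, Slc12a7 and Slc12a9 were higher on both days, beside the same 14.5% and 11.9% of all genes. Slc12a7 had means of 10.4, 13.8 and 13.9 FPKM in sham and on days 7 and 14 (adjusted p = 0.023 and 0.0192), and Slc12a9 had 6.29, 7.83 and 8.40 FPKM (adjusted p = 0.0316 and 0.00744). On day 1 Slc12a9 already ran from 7.66 to 8.26 FPKM, against 5.83 to 6.78 FPKM in sham. Its log2 fold change was 0.29 on day 1, not called (adjusted p = 0.793, limma), and 0.28 on day 7. Slc12a2, the chloride importer, was the most abundant at 27.1 ± 1.4 FPKM in sham and 27.2 ± 3.62 on day 7, and Slc12a5, the neuronal chloride exporter, was at 0.18 FPKM in sham and was not tested.

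Of 20 tested partners of GABA receptors, 1 was higher on day 7, Gabarap, a trafficking protein of gamma subunits that also acts in autophagy, at 159 ± 5.49 FPKM in sham and 190 ± 18.4 on day 7 (adjusted p = 0.0141, limma). Gabarapl1, a relative of Gabarap and the most abundant of the list at 430 ± 4.0 FPKM in sham and 417 ± 29.2 on day 7, was not called. On day 14, 0 of the 20 were called and 5 had an unadjusted p under 0.05. Of 39 tested partners of glutamate receptors, 6 were lower and 2 were higher on day 7, and 2 were lower and 1 was higher on day 14. Beside the counts of both partner lists, 3.45% of all genes tested were lower and 14.5% higher on day 7, and 3.21% and 11.9% on day 14. Nptx1, a secreted pentraxin that gathers AMPA receptors, fell from 66.7 ± 3.39 FPKM in sham to 52.7 ± 2.21 on day 7 and 53.9 ± 4.51 on day 14 (log2 fold changes -0.34 and -0.30, adjusted p = 0.00279 and 0.00455). Dlg2, a scaffold of the postsynaptic density, was also lower on both days and Dlgap4, a scaffold partner, was higher on both. The AMPA receptor auxiliary subunits Cacng2 and Cacng4, the secreted Olfm2 and the pentraxin Nptx2 were lower and the scaffold Homer3 was higher on day 7 (adjusted p = 0.0467, 0.0486, 0.006, 0.00932 and 0.0283). Nsf, which binds Gria2, was the most abundant partner at 170 ± 6.1 FPKM in sham and was not called. The median log2 fold change of this list was -0.06 on day 7 and -0.05 on day 14.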

How the data were processed

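RNA was measured in 16 DRG samples of 4 groups, taken from the sample labels. According to the study's methods, the authors cleaned the reads, which came from a BGISEQ platform (the labels name an Illumina protocol), used HISAT and Bowtie2 for mapping and RSEM for the level of each gene, and the deposited FPKM have 2 decimals; the submitters' processing notes name CASAVA 1.4 and Bowtie2. The genome build and annotation are not given in the sources used here. FPKM hold no read totals, so the depth behind each value is unknown and no counting interval is given. Summed FPKM ran from 436572 to 441397 in sham and from 440863 to 473959 over the TCI samples of days 7 and 14.

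The deposited FPKM were turned into log2(FPKM + 1), and the 14023 genes that reached 1 FPKM in 3 or more samples were kept. All 4 groups entered 1 linear model per gene (limma 3.58.1 in R 4.3.3, eBayes with an intensity trend), without the 2 samples left out by the study, with Benjamini-Hochberg adjustment over all genes tested. P-values set each difference against the spread between animals within groups, pooled over all 4 groups and moderated across genes. On simulated data for day 7 against sham, with 13845 genes, 96 of 100 genes changed by a log2 fold change of 1 and 100 of 100 changed by 2 were recovered, with 16 false calls. The changes of the subunits were smaller than these. Such sizes were not simulated, so the check gives no recovery rate for the subunits, called or not. Tables and figures were made with pandas 2.3.3 and matplotlib 3.10.9 in Python 3.11.15.

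All 41 members were matched to RefSeq by gene identifier and 29 to a promoter sequence. Coordinates are those of RefSeq in GRCr8. Each member whose mean reached 1 FPKM in a group was named with its values, and from the related lists the genes called against sham and the most abundant gene. Of the related lists, 2 genes are not reported here and were left out of the lists' counts. The genes Gad1, Gad2 and Slc12a5 were named outside this rule, after their values were seen. Of 22 partners of GABA receptors listed, 21 were found. The members and lists were chosen with earlier results of these data known. Alternatives were all 16 samples, the compared groups alone, no trend, quantile normalization, centring on the pan-neuronal list, other filters, a pseudocount of 0.1, the study's cut-offs, the replicate number as a block, and each sample left out in turn. Centring with all 16 samples was added after seeing the data.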

Additional observations from a re-analysis of the deposited data

Results flagged for a closer look

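For 8 of the 96 subunit and group combinations of 4 samples examined, 1 sample lay far outside the other 3, by Dixon's criterion, which chance alone meets in about 1 of 20 groups. Of the 8, 6 are in the samples left out by the study and 5 in replicate 3 of TCI day 7. In that replicate Gabbr1 measured 95.94 FPKM (the others 136.47 to 141.47), Gabbr2 26.28 (39.91 to 41.14), Grin1 18.64 (28.94 to 30.49), Grik5 8.74 (13.46 to 14.14) and Gabra3 4.39 FPKM (5.55 to 5.66). Its pan-neuronal genes summed to 12527 FPKM against 17494 to 18613 FPKM in the other day 7 samples, and its skeletal muscle genes to 27564 against 13.4 to 19.6 FPKM. In the left-out replicate 2 of TCI day 1 Gabbr2 measured 39.67 FPKM (43.24 to 43.78). In sham, replicate 2 was low for Grik1 at 28.14 FPKM (34.05 to 35.21) and replicate 3 for Grm3 at 0.8 FPKM (1.01 to 1.04).

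The difference from sham was larger in size on a later day than on day 1 for 3 subunits, by the limma test between the TCI days. On day 7 against day 1 the log2 difference was -0.33 for Gabra5 (adjusted p = 0.0293), -0.41 for Gria4 (0.0443) and -0.22 for Grin1 (0.0155). On day 14 against day 1 it was -0.53 for Gria4 (0.015). Sham enters both sides of each difference and drops out of it.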

How the results depend on the processing

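The counts of called subunits depended most on the scaling. Centring on the pan-neuronal list gave 0 lower and 2 higher for day 7 against sham (0.285% and 39.4% of all genes), 1 and 2 for day 14 against sham (0.406% and 27.6%), 0 and 2 for day 7 against day 1 (0.25% and 20.3%) and 0 and 1 for day 14 against day 1 (0.257% and 10.1%). With all 16 samples and centring together these were 0 and 3 (0.185% and 49.2% of all genes), 1 and 1 (0.135% and 7.78%), 0 lower (0.383%), and 0 lower (0.185%). The log2 fold change of Gabbr1 on day 7 changed sign in both settings, to 0.02 and 0.03. Quantile normalization gave 14 lower on day 7 (16.5% of all genes), 9 lower and 0 higher on day 14 (11% and 7.85%), 7 lower from day 1 to day 7 (6.84%) and 3 lower from day 1 to day 14 (3.01%). At the study's cut-offs each of these counts was 0. A mean of at least 5 FPKM, which removes subunits, gave 4, 1, 1 and 0 lower in the same order. Of all genes tested in that setting, 4.36%, 4.03%, 1.45% and 1.13% were lower. The compared groups alone gave 1 higher on day 7 (17% of all genes). They gave 1 lower and 0 higher on day 14 (1.42% and 6.82%) and 0 lower from day 1 to day 14 (0.0733%). All 16 samples gave 0 higher on day 14 (8.86% of all genes), and limma without the trend 4 lower on day 14 (2.99%). Other than where the construction of a setting shows it, the cause was not tested. Leaving out each sample in turn gave 4 to 8 lower and 0 to 1 higher on day 7, 2 to 4 lower and 0 to 1 higher on day 14, 0 to 4 lower from day 1 to day 7 and 0 to 1 lower from day 1 to day 14, and 0 to 0 in the other comparisons and directions. Over these fits, 2.12% to 5.15% of all genes were lower and 10.1% to 17.1% higher on day 7 against sham. On day 14 these shares were 1.61% to 4.29% and 8.11% to 14.4%. From day 1, 0.457% to 2.37% of all genes were lower on day 7 and 0.272% to 2.32% on day 14. Over the single subunits called, 260 of 343 repeats kept direction and call, 81 kept the direction and lost the call, and 2 changed sign.

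Replicate numbers are shared between groups, but the samples come from different animals. The deviations of same-numbered samples from their group means had a median r of 0.00257 (18 pairs, r from -0.0952 to 0.269, 4 of them over 0.1). For samples with other numbers the median was -0.00468 (55 pairs, r from -0.326 to 0.41, 8 of them over 0.1). With the replicate number as a block, 6 subunits were lower and 1 was higher on day 7 (3.71% and 13.6% of all genes), and 3 were lower and 1 was higher on day 14 (3.27% and 11.8%). Without read counts, depth limits cannot be given, and the 5 subunits near 1 to 2 FPKM in sham are those with the fewest fragments for their length.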
